A study of Homo sapiens with 6 samples.

Results

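The subject is a set of 53 genes of DNA repair, listed by name, in AGS, an established human line of gastric carcinoma cells. A member was measured where a transcript cluster of the array carried exactly its symbol and no other, and all 48 members found this way had 1 such cluster, out of 18417 genes measured in all. ERCC5 and RAD51D lay in clusters that carry 2 symbols each and were not used, and BRCA2, FANCA and FANCD2 were not analysed here. The list was written from gene function, but it was chosen with earlier results of these data known. It was compared between 3 arrays of cells kept for 24 h with 20 µM celecoxib, an inhibitor of cyclooxygenase-2, and 3 arrays of control cells labelled as given nothing. Both groups had been grown for 48 h beforehand in the same serum-containing medium, and each array received product of 250 ng of total RNA. The drug came from a DMSO stock, and whether control wells had the solvent too is not stated in the labels. The labels call the arrays biological replicates but also mention pooling of samples, so p-values measure only the spread between these arrays, which may be technical.

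DNA repair is a family of pathways, each with its own type of damage. Homologous recombination and end joining reseal broken chromosomes, the Fanconi anaemia pathway opens crosslinks between strands, nucleotide excision removes bulky lesions such as ultraviolet photoproducts, and base excision removes small damaged bases. Mismatch repair corrects replication errors, and its loss defines a recognised class of gastric tumours. Kinases such as ATM and ATR sense the damage and pause the cell cycle. Values are log2 expression values normalised by the authors, so a difference of 1 is a doubling, and levels of different genes were not set against each other because each is read by its own probes. In bulk RNA, fewer cells expressing a gene and less RNA per cell cannot be told apart.

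Array medians lay between 6.75 and 6.82, and Pearson's r between arrays across transcript clusters was 0.985 to 0.996. Of 6 epithelial markers (EPCAM, KRT8, KRT18, KRT19, CDH1, CLDN4), 6 lay above the median of all values, against 1 of 6 fibroblast, 2 of 5 leukocyte and 0 of 5 endothelial markers. The leukocyte antigen gene PTPRC averaged 3.95 and 4.01 and the endothelial PECAM1 5.09 and 5.06 in controls and celecoxib arrays. The fibroblast marker above that median was COL1A1 (7.74 and 7.61), and the leukocyte markers were TYROBP (7.70 and 7.64) and CD68 (8.13 and 8.14). All 48 repair members lay above that median. Small nuclear and nucleolar RNA, taken as the median of 216 genes, stood at 7.15, 7.02 and 7.20 in the control arrays. With celecoxib it stood at 7.68, 7.28 and 7.27, so celecoxib 1 stood apart. Every celecoxib value also lay above every control value. The level is therefore tied to the group, and fits with it as a covariate cannot separate the level from the drug.

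Promoter windows of 5 members are shown first for orientation, because the genes behind them are 3 members that were higher with celecoxib and the 2 members that were furthest below their controls. ATM is the main kinase sensor of broken DNA, RAD50 holds broken ends together, PMS1 is a mismatch repair homologue, XRCC1 is the scaffold of single-strand break repair, and PARP2 is a polymerase of ADP-ribose that marks nicks. Each window is the 250 bases before a RefSeq start site (build GRCh38.p14), written 5′ to 3′ on the strand of the gene. Capitals mark matches, on either strand, to the CCAAT box (CCAAT), the cell cycle homology region (TTTGAA), an ETS core (CCGGAAG), an NRF1 core (TGCGCA) or an E2F core (TTTCGCGC, TTTGGCGC or TTTCCCGC). Where matches touch, as TTTGAA and CCGGAAG do in ATM, their capitals run together. The windows are chr11:108222817-108223066 on the plus strand for ATM, chr5:132556727-132556976 (plus) for RAD50, chr2:189784200-189784449 (plus) for PMS1, chr19:43575528-43575777 (minus) for XRCC1 and chr14:20343385-20343634 (plus) for PARP2.
ATM: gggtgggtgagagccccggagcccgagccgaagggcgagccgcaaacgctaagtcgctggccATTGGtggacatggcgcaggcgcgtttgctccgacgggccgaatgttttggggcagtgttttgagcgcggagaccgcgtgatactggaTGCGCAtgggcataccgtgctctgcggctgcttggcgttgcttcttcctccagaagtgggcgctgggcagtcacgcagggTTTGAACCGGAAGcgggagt
RAD50: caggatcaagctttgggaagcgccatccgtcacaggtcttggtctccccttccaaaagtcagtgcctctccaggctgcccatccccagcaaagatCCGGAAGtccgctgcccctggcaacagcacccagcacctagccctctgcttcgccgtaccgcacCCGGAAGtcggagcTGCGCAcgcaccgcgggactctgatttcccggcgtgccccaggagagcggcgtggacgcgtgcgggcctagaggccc
PMS1: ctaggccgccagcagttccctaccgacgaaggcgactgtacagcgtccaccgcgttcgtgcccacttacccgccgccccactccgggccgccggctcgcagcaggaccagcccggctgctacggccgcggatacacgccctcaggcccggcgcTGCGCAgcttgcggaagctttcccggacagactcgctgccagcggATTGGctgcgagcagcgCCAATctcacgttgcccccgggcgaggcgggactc
XRCC1: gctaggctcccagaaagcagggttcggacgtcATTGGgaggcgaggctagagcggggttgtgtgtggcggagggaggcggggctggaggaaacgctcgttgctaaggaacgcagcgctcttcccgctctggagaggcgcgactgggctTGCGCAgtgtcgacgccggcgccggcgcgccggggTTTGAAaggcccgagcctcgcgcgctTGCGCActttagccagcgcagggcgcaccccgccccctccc
PARP2: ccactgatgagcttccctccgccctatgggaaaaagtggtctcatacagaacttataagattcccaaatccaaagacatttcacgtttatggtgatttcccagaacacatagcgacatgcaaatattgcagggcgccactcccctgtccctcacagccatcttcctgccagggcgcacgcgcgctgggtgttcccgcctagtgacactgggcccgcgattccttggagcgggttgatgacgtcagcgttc

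The NRF1 core stood in 4 of these 5 windows, in members above and below their controls alike, and the PARP2 window held none of the letters searched. Of the 48 members, 41 had a window in the RefSeq table, and where a gene had several starts (ATM has 2) the first listed was used. The NRF1 core was present in 12 of the 41 (29.3%), against 9.25% of 14239 tested genes with a window, and the ETS core in 9 (22.0%) against 12.1%. The CCAAT box was in 15 (36.6%) against 34.4%, the E2F core in 3 (7.32%) against 3.24% and the TTTGAA element in 3 (7.32%) against 10.6%. The median GC content was 64.4% for the members and 62.8% for all. A match is a run of letters and says nothing about binding.

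Across the whole set, celecoxib was accompanied by small differences. No member passed an adjusted p of 0.05 in the limma fit over all genes (0 of 48, smallest adjusted p = 0.196), where 26 of 18417 genes or 0.141% did. At an unadjusted p under 0.05 there were 8 members higher and 0 lower, 16.7% of the members for the higher direction, where 6.87% of all genes were higher and 4.44% lower. Among the 10857 genes above the median signal, as all members were, 9.39% were higher at that p and 4.72% lower. The largest member difference was 0.46, and the smallest difference called in any gene was 0.50 in size. Of the 48 members, 28 (58.3%) had a higher mean with celecoxib and 20 a lower one. Over all genes 47.9% were higher, and above the median signal 52.1%. The members' median difference was 0.044, beside -0.0068 over all genes. Without celecoxib 1 the members' median was 0.0074.

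The celecoxib and control values did not overlap in 13 members with higher values (27.1%) and 3 with lower values (6.25%). Over all genes these shares were 11.1% and 7.95%, and over genes above the median signal 15.8% and 8.18%. The count of 8 was 5 without control 1, 4 without control 3, 5 without celecoxib 1 and 4 without celecoxib 2. In each of those fits all 8 kept a positive difference, which was fixed in advance because their groups did not overlap. With this small RNA level as a covariate in the fit the count was 4. The count of lower members at that p, 0 with all genes and arrays, was 2 among genes above the median signal, after leaving out the dimmest 20%, after repeated quantile normalisation or cyclic loess, and with an intensity trend, and was 3 with array weights. XRCC1 lay under that p in 10 of 19 alternative fits and PARP2 in 7.

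**Figure D1:**
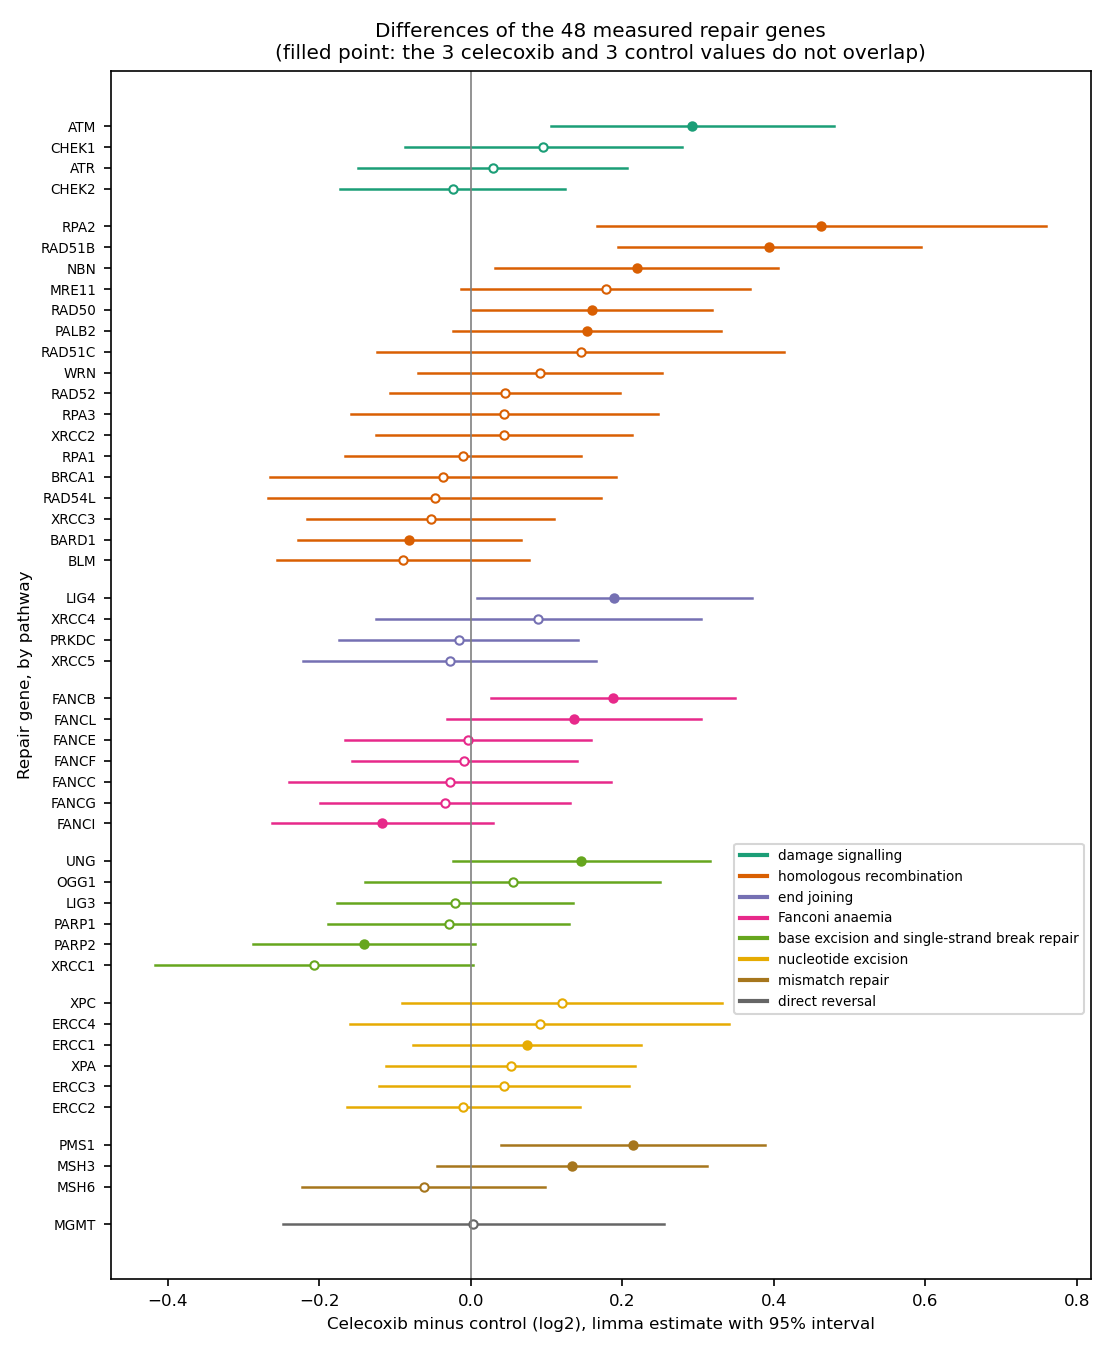
Celecoxib minus control difference (log2) of each of the 48 measured repair genes, with its 95% interval from limma, ordered by pathway; filled points mark genes whose 3 celecoxib and 3 control values do not overlap. Intervals of 8 genes lie wholly above 0 and of 0 genes wholly below it, and the 2 largest differences are those of RPA2 and RAD51B.

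Damage signalling was led by ATM, whose kinase is recruited and switched on by the MRE11, RAD50 and NBN complex at broken ends. ATM measured 8.21, 8.20 and 8.04 in the controls and 8.37, 8.54 and 8.41 with celecoxib. All 3 celecoxib arrays lay above all 3 controls. The difference was 0.29 ± 0.08 (SE, n = 3 per group), or 1.22-fold, with limma adjusted p = 0.285. It kept an unadjusted p under 0.05 in 19 of 19 alternative fits, 6 of which left out 1 array. These fits reuse the same arrays and are not independent. The ATM difference lay between 0.24 without control 3 and 0.38 with the small RNA level as a covariate. ATR, the kinase of stalled replication forks, differed by 0.03, with a 95% interval from -0.15 to 0.21. Its effector CHEK1 differed by 0.10 (interval -0.09 to 0.28), by 0.05 without celecoxib 1 and by -0.02 with the covariate. CHEK2, the effector kinase downstream of ATM, measured 7.70, 7.66 and 7.70 in the controls and 7.63, 7.68 and 7.69 with celecoxib. The CHEK2 groups overlapped, and its interval ran from -0.17 to 0.12. Whether ATM differed more than these kinases was not tested.

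The 3 subunits of the complex that senses and trims double-strand ends were each higher on average. NBN, the subunit that recruits ATM, measured 8.43, 8.49 and 8.25 in the controls and 8.61, 8.64 and 8.58 with celecoxib. RAD50, the ATPase that bridges the ends, measured 9.91, 9.80 and 9.82 against 10.02, 10.03 and 9.95. In both genes every celecoxib array lay above every control. NBN differed by 0.22 ± 0.08 (limma adjusted p = 0.382) and RAD50 by 0.16 ± 0.07 (adjusted p = 0.440), the latter with a 95% interval whose lower bound was 0.0009. MRE11, the nuclease, differed by 0.18 ± 0.08 (adjusted p = 0.457), and celecoxib 3 lay below control 2. With the replicate number as a block in the fit, the unadjusted limma p of MRE11 was 0.0464 and that of RAD50 0.0636, which puts each on the other side of 0.05. RAD50 had an unadjusted p under 0.05 in 7 of 19 alternative fits and NBN in 17.

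Homologous recombination copies the lost sequence from a sister chromatid, and 17 of its 19 listed members were measured. RAD51B, which acts in the strand exchange step of recombination, measured 7.86, 7.73 and 7.80 in the controls and 8.32, 8.05 and 8.20 with celecoxib. It was higher in all 3 celecoxib arrays, by 0.39 ± 0.09 (1.31-fold), and had the smallest p of all members (limma adjusted p = 0.196). Its difference lay between 0.25 and 0.46 in 19 alternative fits, with an unadjusted p under 0.05 in 19. RAD51C, XRCC2 and XRCC3 act in the same step, and differences between these genes were not tested. RAD51C differed by 0.14 (95% interval -0.12 to 0.41), XRCC2 by 0.04 (-0.13 to 0.21) and XRCC3 by -0.05 (-0.22 to 0.11). The RAD51C value was 0.012 without celecoxib 1 and turned to -0.14 with the small RNA covariate.

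RPA coats single-stranded DNA before strand exchange and also serves replication and excision repair. Its middle subunit RPA2 measured 7.09, 7.13 and 7.00 in the controls and 7.85, 7.35 and 7.41 with celecoxib. Celecoxib 1 was far above the other 2, and all 3 lay above the controls. The difference of 0.46 ± 0.13 (1.38-fold, adjusted p = 0.288) was the largest of the members. It was 0.31 without celecoxib 1 and 0.20 with the small RNA level as a covariate, where celecoxib 1 was also the highest array. The large subunit RPA1 measured 8.87, 8.91 and 8.90 against 8.91, 8.93 and 8.82, with overlapping groups and a difference of -0.0099. RPA3, the smallest, differed by 0.04 (95% interval -0.16 to 0.25).

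Among the mediators, PALB2, which brings BRCA2 to BRCA1, differed by 0.15 ± 0.08 without overlap of the groups. BRCA1 itself differed by -0.04 (95% interval -0.27 to 0.19), and its partner BARD1 by -0.08 ± 0.06, lower without overlap. RAD52, an annealing protein, differed by 0.05, and RAD54L, a DNA-dependent motor protein, by -0.05. Of the RecQ helicases, WRN differed by 0.09 and BLM by -0.09, and in both genes the groups overlapped. The median over the 17 members was 0.045, with 11 higher and 6 lower.

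**Figure D2:**
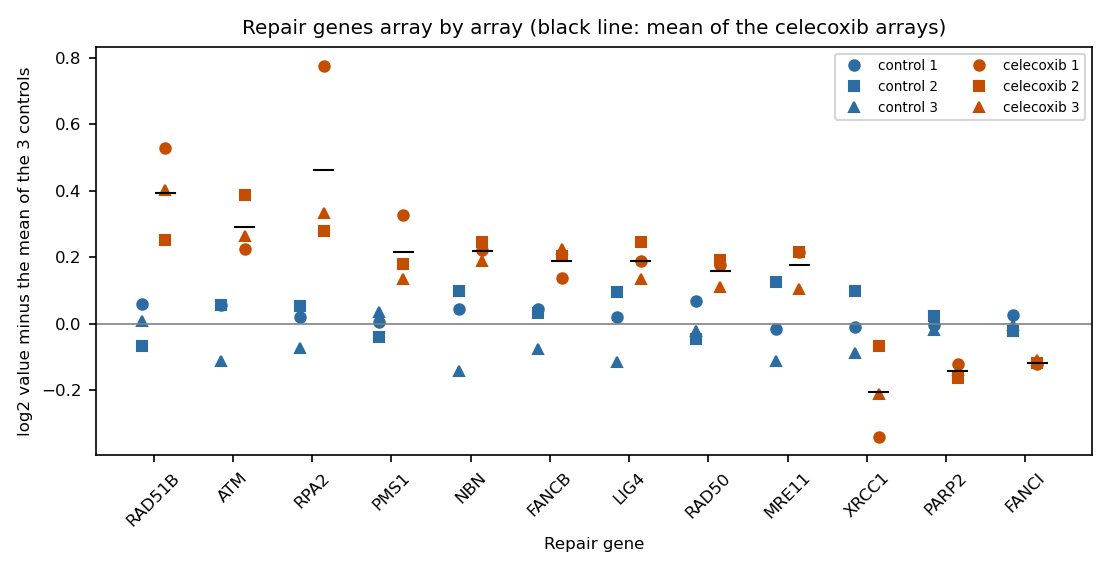
Log2 value of 12 repair genes in each of the 6 arrays after subtracting the mean of that gene's controls; blue symbols are controls, orange symbols celecoxib arrays, and the black line is the celecoxib mean. RPA2 in celecoxib 1 stands far above the other 2 celecoxib arrays, and the 3 celecoxib values of PARP2 and of FANCI lie close together below the controls.

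End joining religates ends directly, with LIG4 as the ligase, XRCC4 as its partner, and XRCC5 (Ku80) and PRKDC as parts of the kinase that holds the ends. LIG4 measured 7.70, 7.78 and 7.57 in the controls and 7.87, 7.93 and 7.82 with celecoxib, all celecoxib values being above all controls. It differed by 0.19 ± 0.08 (limma adjusted p = 0.428), and by 0.13 without control 3. PRKDC measured 10.20, 10.11 and 10.18 against 10.10, 10.14 and 10.20, which overlap, with an interval from -0.17 to 0.14. XRCC4 differed by 0.09 (95% interval -0.12 to 0.30) and XRCC5 by -0.03 (-0.22 to 0.17). The XRCC4 value was 0.0057 without celecoxib 1 and -0.10 with the covariate.

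In the Fanconi anaemia pathway, a core complex attaches ubiquitin to FANCI and FANCD2 at crosslinks. FANCB, a core subunit, measured 7.25, 7.24 and 7.13 in the controls and 7.34, 7.41 and 7.43 with celecoxib, again without overlap. Its difference was 0.19 ± 0.07 (adjusted p = 0.385), and 0.25 with the small RNA covariate. FANCL, the ubiquitin ligase of the complex, differed by 0.14 ± 0.07 with celecoxib values above all controls, whereas FANCI, the substrate, differed by -0.12 ± 0.06 with values below all controls. Neither reached an unadjusted p of 0.05, and FANCL differed by 0.09 without control 2. FANCE, another core subunit, measured 7.86, 7.83 and 7.72 against 7.78, 7.78 and 7.85, a difference of -0.0040. FANCC, FANCF and FANCG differed by -0.03, -0.0084 and -0.03, and the median over the 7 members was -0.0084.

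Base excision and repair of single-strand breaks held the 2 lowest members. XRCC1 measured 9.55, 9.65 and 9.47 in the controls and 9.21, 9.49 and 9.34 with celecoxib. Celecoxib 1 was lowest, and celecoxib 2 lay above control 3, so the groups overlapped. The difference was -0.21 ± 0.09 (limma adjusted p = 0.442). It was -0.05 with the small RNA covariate and -0.14 without celecoxib 1, and its unadjusted limma p with the replicate block was 0.0332. PARP2 differed by -0.14 ± 0.06 (adjusted p = 0.447), with tightly grouped arrays and no overlap, and stayed between -0.16 and -0.10 in the 19 alternative fits. Its relative PARP1, which makes most of the cell's poly(ADP-ribose), differed by -0.03 (95% interval -0.19 to 0.13). LIG3, the ligase held by XRCC1, measured 8.65, 8.57 and 8.57 against 8.54, 8.63 and 8.57, which overlap. Of the glycosylases that start the pathway, the members UNG and OGG1 had higher means. UNG, which removes uracil, differed by 0.15 ± 0.07 without overlap, and OGG1, which removes oxidised guanine, by 0.06 (-0.14 to 0.25). Glycosylases outside the members went both ways, from NEIL2 at -0.19 to MBD4 at 0.16.

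Nucleotide excision showed no member at an unadjusted p under 0.05 (0 of 6), and 5 of the 6 had positive differences. XPC, which recognises the distorted helix, measured 6.79, 7.02 and 6.78 in the controls and 7.03, 7.05 and 6.87 with celecoxib. Celecoxib 3 lay below control 2, and the difference was 0.12 with an interval from -0.09 to 0.33. The incision nuclease subunits ERCC1 and ERCC4 differed by 0.07 and 0.09, the former without overlap, and the verifying factor XPA by 0.05. ERCC4 differed by -0.02 without celecoxib 1 and by -0.14 with the covariate, and XPC by 0.08 without control 3. Of the helicases that open the bubble, ERCC3 differed by 0.04, and ERCC2 measured 9.82, 9.82 and 9.75 against 9.76, 9.83 and 9.77, a difference of -0.0098.

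Mismatch repair had 3 measured members that bind or process mispaired bases. PMS1 measured 8.98, 8.94 and 9.01 in the controls and 9.31, 9.16 and 9.11 with celecoxib, with celecoxib 1 highest and no overlap. It differed by 0.21 ± 0.08 (limma adjusted p = 0.365), by 0.16 without celecoxib 1 and by 0.09 with the small RNA covariate. MSH3, which recognises small loops, differed by 0.13 ± 0.08 without overlap, and by 0.07 without control 3. MSH6, which recognises single mismatches, measured 8.92, 8.96 and 8.95 against 8.85, 8.97 and 8.83, a difference of -0.06 with overlapping groups. MGMT, which lifts alkyl groups off guanine without cutting the strand, measured 8.17, 7.99 and 8.24 against 8.33, 7.96 and 8.13. Its groups overlapped fully, with an interval from -0.25 to 0.26.

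**Figure D3:**
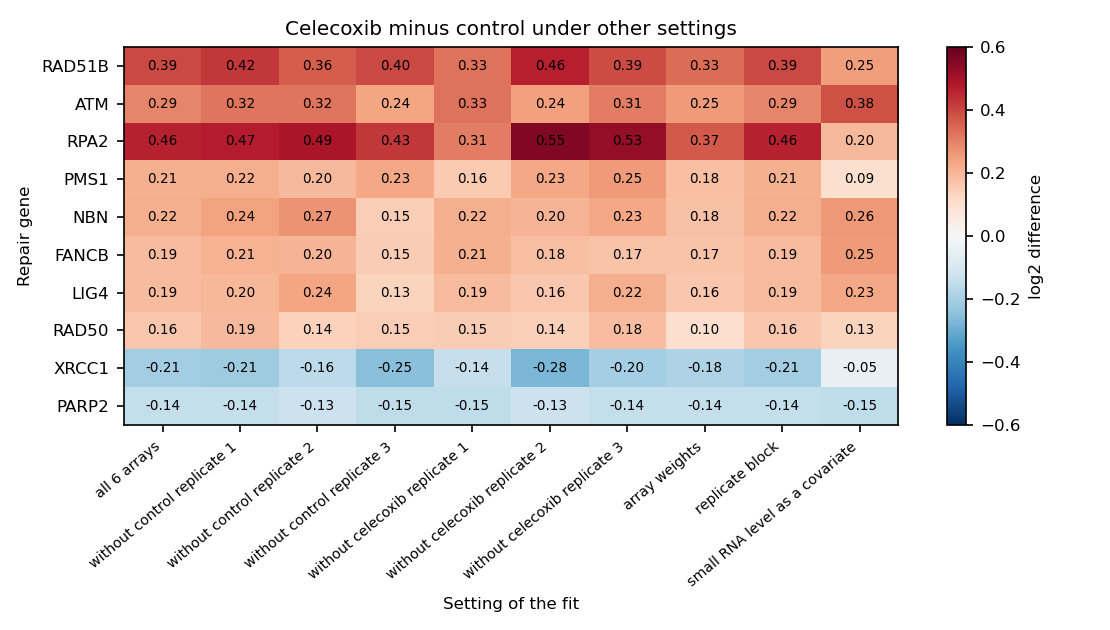
Celecoxib minus control difference (log2) of 10 repair genes, as colour and number, with all 6 arrays, without each array in turn, with array weights, with the replicate number as a block and with the small RNA level as a covariate. Every cell keeps the sign it has with all 6 arrays. For genes whose groups do not overlap, leaving out an array could not change the sign. The covariate takes RPA2 from 0.46 to 0.20 and XRCC1 from -0.21 to -0.05. The small RNA level was itself higher in every celecoxib array than in every control.

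A wider list of 111 further repair genes was set beside the members, and 102 were measured. None was called (limma, 0 of 102, smallest adjusted p = 0.167), and at an unadjusted p under 0.05 there were 10 higher and 3 lower. The 10 were 9.80% of the list, near the 9.39% of genes above the median signal, where 98 of the 102 lay. Over all genes 6.87% were higher and 4.44% lower at that p. Of the 102, 65 had positive and 37 negative differences, with a median of 0.038. Positive were 63.7%, against 47.9% of all genes and 52.1% of genes above the median signal. APLF, an end joining factor that binds poly(ADP-ribose), differed by 0.41 ± 0.09, ERCC8, which couples excision to transcription, by 0.39 ± 0.09, and HUS1, a subunit of the checkpoint clamp, by 0.34 ± 0.08. In each the groups did not overlap. MCM9 and SWI5, both recombination factors, differed by 0.32 ± 0.09 and 0.26 ± 0.08, and POLB, the polymerase of base excision, by 0.27 ± 0.11. The 3 at that p with negative differences were CLSPN, a mediator between ATR and CHEK1 (-0.25 ± 0.11), FAAP100 of the Fanconi core (-0.20 ± 0.07) and DDB2, a sensor of ultraviolet lesions (-0.16 ± 0.06). Of 8 translesion synthesis genes 7 had positive differences, with a median of 0.11 and POLI at 0.16 ± 0.06. PCNA, at 0.12, was counted in this list and also among the S phase genes below.

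Many repair genes are transcribed mostly in S phase, so genes of the cell cycle were read beside them. Of 18 S phase genes, 13 had negative differences (median -0.07), and of 18 mitosis genes 16 did (median -0.21). None was called by limma, and at an unadjusted p under 0.05 there were 0 higher and 2 lower in S phase and 0 higher and 11 lower in mitosis. The lower ones were 11.1% and 61.1% of these lists, against 4.44% of all genes and 4.72% of genes above the median signal. KIF20A, BUB1B and KIF23 differed by -0.37 ± 0.08, -0.30 ± 0.07 and -0.33 ± 0.09. The part of the cell cycle in the repair values was not tested.

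The median of the 48 members, after subtracting each gene's control mean, was 0.02, 0.01 and -0.03 for the control arrays, against 0.10, 0.04 and 0.0030 with celecoxib. Celecoxib 1 was highest and celecoxib 3 lay within the controls, so the groups overlapped. Over the mitosis genes the celecoxib arrays stood at -0.12, -0.21 and -0.25 and the controls at 0.02, -0.07 and 0.06, which do not overlap. Over the S phase genes they stood at -0.08, -0.02 and -0.10 against controls at 0.02, -0.0044 and 0.01, also without overlap. Over all genes the 6 values lay between -0.01 and 0.01.

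**Figure D4:**
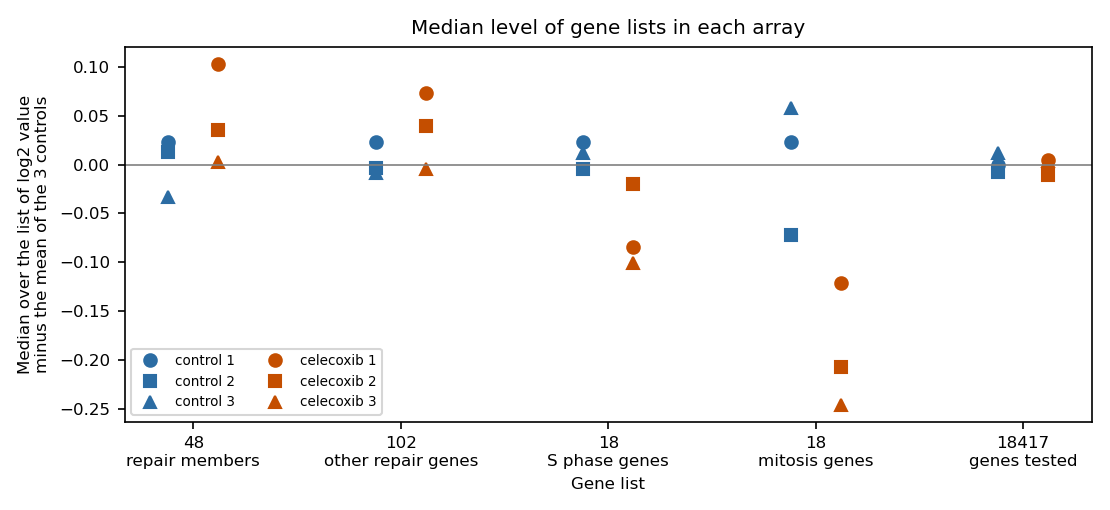
Median over each gene list of the log2 value minus that gene's control mean, for each of the 6 arrays; blue symbols are controls and orange symbols celecoxib arrays. The repair members and the other repair genes overlap between the groups, with celecoxib 1 highest. For the S phase genes and for the mitosis genes, the 3 celecoxib arrays lie below the 3 controls.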

How the data were processed

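Total RNA of 6 AGS samples was hybridised to Affymetrix HuGene-1_0-st arrays. The deposited log2 values, 1 per transcript cluster, were made by the authors with RMA in Affymetrix Expression Console 1.1, per the submitters' processing notes. RMA forces arrays to a common distribution, so a shift shared by most genes would be removed. No label or header names probe-level settings, scan dates or slides, and batches were therefore not examined. Arrays limit precision by their number.

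Of 33297 clusters, 19460 carried 1 symbol in the platform annotation, 1754 several and 12083 none. The brightest cluster by mean stood for each gene, and no filter was applied. limma 3.58.1 (lmFit, eBayes) in R 4.3.3 compared the groups, with Benjamini-Hochberg adjustment over 18417 genes, two-sided. The code was tested on simulated data. Members and lists were chosen with earlier results of these data known.

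Values array by array are given for members at an unadjusted p under 0.05 and, per pathway, for those with the largest and smallest absolute difference. Of the other repair genes, up to 3 per pathway with the smallest p could be named, and 3 cell cycle genes. Further genes were named outside this rule, as under Other observations, after their values were seen. HUS1 and RAD17 are given array by array there although they are not members. Alternatives were other cluster rules, filters, normalisations, variance priors, array weights, a replicate block, a covariate and leaving out each array. Figures were drawn with matplotlib 3.10.9.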

Additional observations from a re-analysis of the deposited data

How the results depend on the processing

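The count of members called was 0 in all 19 alternatives run, and so was that of the other repair genes; the smallest adjusted p of any member over these fits was 0.0784, with array weights. The count of all genes called, 26 here, was 76 among genes brighter than the median, 59 once the dimmest 20% were left out, 40 with quantile normalisation repeated, 47 with cyclic loess, 69 with an intensity trend (69 with a robust prior too), 177 with array weights, 1 with the small RNA covariate and 0 with all clusters tested together. Without each array in turn it lay between 0 and 5. Members higher at an unadjusted p under 0.05 numbered 8 here, 4 with the covariate and 4 to 7 without single arrays. The median over members was -0.011 with array weights, which gave control 1 a weight of 5.85 and celecoxib 1 one of 0.37.

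In the fit used above, pathway medians were 0.062 for damage signalling, 0.037 for end joining, -0.0084 for Fanconi anaemia and -0.025 for base excision. They were 0.063 for nucleotide excision, 0.133 for mismatch repair and 0.0033 for MGMT. Pathway medians moved by more than the spread between arrays in these cases. Median centring of the arrays gave 0.099 for damage signalling, 0.028 for Fanconi anaemia, 0.012 for base excision and 0.17 for mismatch repair, and moved the members with positive differences from 28 to 40. It also moved the genes at an unadjusted p under 0.05 from 1265 higher and 818 lower to 1835 and 464, and those called from 14 higher and 12 lower to 18 and 10. Array weights gave -0.070 for base excision, -0.013 for nucleotide excision and 0.093 for mismatch repair, with 1806 genes higher and 1524 lower. The small RNA covariate gave -0.033 for end joining, 0.094 for mismatch repair and -0.22 for MGMT. Mismatch repair was at 0.112 with repeated quantile normalisation (0.1123) and with cyclic loess (0.1115). Without single arrays the Fanconi median lay between -0.045 and 0.0088, base excision between -0.043 and 0.0091, and mismatch repair between 0.070 and 0.176. Median centring raised every difference by the same amount, because the celecoxib array medians all lay below the control medians. The causes of the other shifts were not tested.

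With the replicate number as a block, 0 genes were called by limma (2448 at an unadjusted p under 0.05), 8 members were higher (MRE11 in place of RAD50) and 1 lower (XRCC1) at that p, and no member was called. Deviations of same-numbered arrays correlated at -0.0175, 0.494 and 0.0120 over all genes, where control 1 correlated best with celecoxib 2. Over the 48 members they correlated at 0.160, 0.551 and 0.144, and control 3 correlated best with celecoxib 1 (0.297). The numbers were not taken as pairs, on the values over all genes.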

Other observations

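Other repair complexes, picked out after their values were seen, gave uneven values. Of the checkpoint clamp and its loader, HUS1 measured 8.62, 8.44 and 8.55 in the controls and 8.99, 8.81 and 8.84 with celecoxib, and the loader subunit RAD17 8.07, 8.03 and 7.93 against 8.21, 8.28 and 8.16. The clamp partners RAD1 and RAD9A differed by 0.07 and -0.12. MCM9 differed by 0.32, while MCM8, with which it forms a helicase, differed by -0.18 with overlapping groups.

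Subunits of TFIIH, the complex that opens DNA for excision and for transcription, were mostly above their controls on average, with MNAT1 at 0.23 ± 0.11, CCNH at 0.24 ± 0.12 and GTF2H1 at 0.16 ± 0.08. GTF2H5 differed by 0.18, GTF2H3 by 0.14, CDK7 by 0.07 and GTF2H4 by 0.0060. CDK7 and GTF2H4 had several clusters, of which the brightest was read, and GTF2H2 was not measured. Positive differences were found in 47.9% of all genes and 52.1% of genes above the median signal. The helicases ERCC3 and ERCC2, both members, differed by 0.04 and -0.0098. None of these passed limma's adjusted threshold or an unadjusted p of 0.05. Celecoxib 1 was the highest array for MNAT1, CCNH, CDK7, GTF2H1, GTF2H3, GTF2H4 and GTF2H5, but not for ERCC2 or ERCC3. That array was also highest for small nuclear and nucleolar RNA, whose part in these values was not tested.

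Replicates of the repair members were close together, with a median standard deviation within groups of 0.069 beside 0.109 over all genes. All members lay above the median signal, which was not matched in that comparison.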
